A study of Mus musculus with 6 samples.

Results

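The transcripts of 8 transcription factor genes that act in the differentiation of stratified squamous epithelium were followed in mouse esophagus and stomach organoids: *Grhl1*, *Grhl2*, *Grhl3*, *Ovol1*, *Ovol2*, *Zfp750*, *Prdm1* and *Maf*. The genes were taken by name from the array annotation, which holds all 8 of them among 34298 gene names, and every one of their 10 probes among 55681 was kept. *Grhl2* and *Maf* have 2 probes each. The measurements are 6 single-color arrays, 3 of esophagus and 3 of stomach organoids grown at passage 0 from the same mice, numbered 1, 2 and 4. The study's methods name wild-type female C57BL/6 mice, without saying which animals gave the organoids on these arrays, and start stomach cultures from glands of the corpus. All 6 cultures carry the label Control, and the labels name no other treatment. Cultures were harvested on day 8, except for the stomach culture of mouse 4, harvested on day 7. Stomach medium held WNT3A and R-spondin1 conditioned media and gastrin, esophagus medium held forskolin in their place, and both held EGF, noggin, FGF-10, N-acetylcysteine, nicotinamide and inhibitors of the TGF-β receptor kinase and of ROCK. Tissue and medium therefore cannot be told apart in any comparison here.

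Squamous epithelium renews itself from a basal layer of dividing cells, which leave the cycle, move upward and replace their basal keratins with those of the suprabasal layers before they build a cross-linked protein envelope. The grainyhead-like factors bind a shared motif through a DNA-binding domain of their own kind and are known for barrier and junction genes, with *Grhl2* active in nearly all epithelia and *Grhl1* and *Grhl3* best known from skin. The OVO zinc finger proteins are repressors that hold cells in an epithelial state, *Zfp750* is a target of p63 that switches on late genes together with *Klf4*, *Prdm1* encodes the repressor Blimp-1, and *Maf* encodes a bZIP factor that acts in differentiating keratinocytes.

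The array values are log2 intensities after the authors' background correction and quantile normalization, so a difference of 1 is a 2-fold difference. Replicate arrays correlated with r = 0.979 to 0.985 within esophagus and 0.986 to 0.994 within stomach, against 0.923 to 0.94 between the tissues, and the share of spots well above background, controls left out, was between 45.5% and 51.1% per array. The labelled tissues were borne out by their markers: all 8 columnar genes tested were higher in stomach organoids, and *Krt5* and *Krt14*, keratins of basal squamous cells, were higher in esophagus organoids by 11.93 and 11.30, with 1 and 2 of the 3 stomach arrays well above background. The sizes of these keratin differences are not settled here, since they ran from 10.88 to 14.05 for *Krt5* and from 10.27 to 12.26 for *Krt14* over the alternatives. Of 8 basal squamous genes, 6 were higher in esophagus organoids, 1 (*Trp63*) was higher in stomach organoids and 1 (*Itga6*) was not called. Both exceptions have to be read by probe. The brightest probe of *Itga6*, an integrin of basal cells, differed by 0.57 (adjusted p 0.171; 0.031 without stomach mouse 4) and its other probe by -1.57 (adjusted p 0.00194). The brightest probe of *Trp63* was higher in stomach organoids (adjusted p 0.0249) while its other 3 probes, none of them well above background in a stomach culture, were higher in esophagus organoids by at least 49.6-fold. None of 9 fibroblast and muscle genes was well above background throughout either tissue. A probe with adjusted p under 0.05 in limma's moderated test over all probes was called, and a gene was read by its brightest probe.

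Each value below comes from a single 60-base probe, so the piece of transcript it reads matters where a gene has more than one. The last 30 bases are printed 5′ to 3′, in the sense of the transcript as the array files give it, for the probes of the genes called in all alternatives tried and for both probes of *Grhl2*. Capitals mark ATTAAA, a hexamer that serves some transcripts as a polyadenylation signal. It lies in 2 of the 10 probes, against 3.9% of all probes (2.5% for its reverse complement), and the more common AATAAA lies in none, against 10.1% (3.7% for its reverse complement). A match of letters is a description only. Positions are those of the array files (mm9).
*Grhl3*, chr4:135097991-135098050, minus strand: acacatttcttatttacagttttcattatg
*Zfp750*, chr11:121372670-121372729, minus strand: aatgtgagtagactcacagaaaggacctta
*Maf*, brighter probe, chr8:118227736-118227795, minus strand: actgtattgaaaaccaaagtATTAAAaggg
*Maf*, other probe, chr8:118207273-118207332, minus strand: ttatgattacagtattgagctccacccccc
*Grhl2*, brighter probe, chr15:37293139-37293198, plus strand: gtgtgtacaatctgttcccacATTAAAaaa
*Grhl2*, other probe, chr15:37239426-37239485, plus strand: ttgaagagatcgcatacaatgctgtttcct
The remaining probes lie at chr12:25302095-25302154 on the plus strand (*Grhl1*) and, on the minus strand, at chr19:5549209-5549268 (*Ovol1*), chr2:144131071-144131130 (*Ovol2*) and chr10:44157089-44157148 (*Prdm1*). The probes of *Grhl2* start 53713 bases apart and those of *Maf* 20463 bases apart. Exon and UTR boundaries in mm9 were not used here.

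Of the 8 genes, 4 were higher in esophagus organoids (*Grhl1*, *Grhl3*, *Zfp750* and *Maf*) and 0 were higher in stomach organoids by limma. At unadjusted p under 0.05 it was 7 of 8, all but *Ovol2*, in esophagus and 0 in stomach organoids, against 14.5% of all genes higher in esophagus organoids. Over all genes at adjusted p under 0.05, 7.15% were called higher in esophagus organoids and 7.7% higher in stomach organoids. Where only genes well above background on each of the 6 arrays are counted, 11.1% were higher in esophagus organoids. *Maf* is not in that set, and of the members in it *Grhl1*, *Grhl3* and *Zfp750* were called. By probe, 5 of 10 were called, against 5.94% of all probes, and 0 of 10 were called higher in stomach organoids, against 6.22%. All esophagus arrays lay above all stomach arrays for 7 of the 8 genes, the exception being *Ovol2*, against 16.9% of all genes. The median log2 difference of the 8 genes was 2.48, and that of all genes 0.03. The members were picked as regulators of squamous differentiation with earlier results of these data known, so these counts describe them and are not an independent test of their direction.

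**Figure D1:**
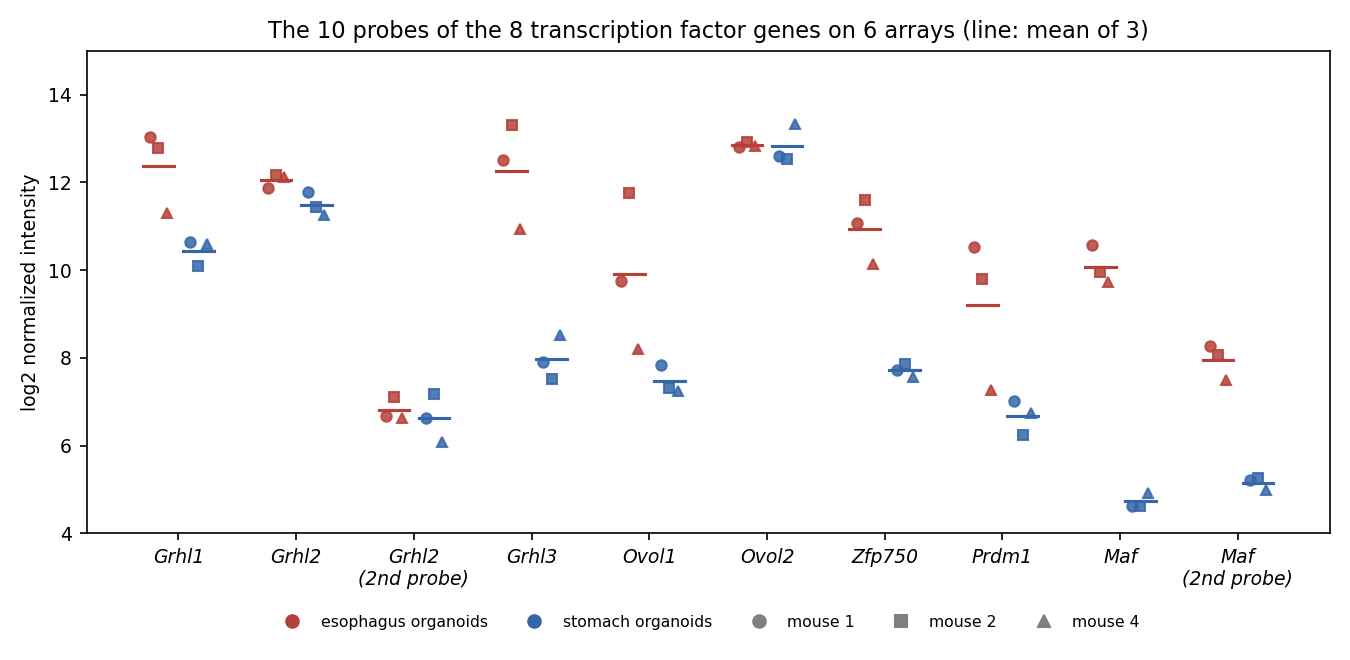
Log2 normalized intensity (vertical axis) of the 10 probes of the 8 genes (horizontal axis) on the 3 esophagus arrays (red) and 3 stomach arrays (blue), with symbols for the mice and lines for the mean of 3; heights of different probes are not comparable. The tissues separate by over 2 log2 units for *Grhl3*, *Zfp750* and both *Maf* probes, narrowly for *Grhl1*, *Ovol1*, *Prdm1* and the brighter *Grhl2* probe, and overlap for *Ovol2* and the other *Grhl2* probe.

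The 3 grainyhead-like genes, which encode closely related DNA-binding proteins, fell in 3 different places. *Grhl3*, known as a factor of the skin barrier and of *Tgm1*, had log2 values of 12.52, 13.30 and 10.94 in the esophagus organoids of mice 1, 2 and 4, and of 7.91, 7.51 and 8.53 in their stomach organoids. The lowest esophagus array was 2.41 above the highest stomach array, which was the day 7 culture of mouse 4. The difference was 4.27 ± 0.56 (SE, n = 3 per tissue; 95% confidence interval 2.97 to 5.57), or 19.3-fold, with an adjusted p of 0.00198 in limma. It was called in 14 of 14 alternatives, and was 4.93 without esophagus mouse 4.

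*Grhl1*, which controls desmosomal cadherins of suprabasal cells, was also higher in esophagus organoids, by a smaller margin. Its log2 values were 13.03, 12.79 and 11.30 in esophagus organoids and 10.64, 10.09 and 10.59 in stomach organoids. Esophagus mouse 4 stood apart from the other two esophagus arrays and came within 0.65 of the stomach arrays, without overlapping them. The difference of 1.93 ± 0.43 (SE; 0.93 to 2.94), or 3.82-fold, had an adjusted p of 0.0247. The call rested on most of the arrays: adjusted p was 0.0565 without esophagus mouse 1 (difference 1.61), 0.0867 without esophagus mouse 2 (1.72), 0.0774 without stomach mouse 1 (2.04), 0.109 without stomach mouse 2 (1.76) and 0.0608 with a normexp offset of 50.

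*Grhl2*, the member of the family that simple and stratified epithelia share, was not called. Its brighter probe read 11.86, 12.17 and 12.13 in esophagus organoids and 11.79, 11.43 and 11.25 in stomach organoids. These ranges did not overlap, but only 0.08 separated esophagus mouse 1 from stomach mouse 1. The difference was 0.57 ± 0.19 (SE; 0.13 to 1.0; adjusted p 0.103), an interval whose upper end is a 2.0-fold difference. The other probe, nearer the start of the gene, read 6.68, 7.11 and 6.63 against 6.63, 7.17 and 6.07, with full overlap and a difference of 0.18 ± 0.29 (SE; -0.48 to 0.85; adjusted p 0.777).

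The other genes of the grainyhead and CP2 family help to place these values. Of the 6 on the arrays, *Grhl1* and *Grhl3* were higher in esophagus organoids, and *Tfcp2l1*, a CP2-type factor known from kidney epithelium and pluripotent cells, was higher in stomach organoids. *Tfcp2l1* had log2 values of 6.04, 6.16 and 6.0 in esophagus organoids and 12.37, 11.87 and 11.63 in stomach organoids. Its difference of -5.89 ± 0.21 (SE; adjusted p 1.39e-06) exceeded in size that of any grainyhead-like gene and was called in 14 of 14 alternatives. The family list had 2 genes higher, 1 lower and 3 not called, with a median of 0.21.

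The OVO genes differed in their spread rather than in a called direction. *Ovol1*, a repressor that acts when epidermal cells leave the cycle and mature, had log2 values of 9.76, 11.75 and 8.21 in esophagus organoids and 7.83, 7.32 and 7.25 in stomach organoids. The esophagus arrays ranged over 3.53, with mouse 2 highest and mouse 4 only 0.38 above the nearest stomach array. The difference was 2.44 ± 0.76 (SE; 0.67 to 4.21), or 5.41-fold, with an adjusted p of 0.0869. Without esophagus mouse 4 it was 3.28 (adjusted p 0.00812), without esophagus mouse 2 it was 1.52 (0.0993), and with probes of low signal left out of the fit adjusted p was 0.0485. In the RefSeq gene table (GRCm38.p6) *Ovol1* overlaps *Ap5b1*, whose brightest probe went the other way, by -1.08 (adjusted p 0.0115, and 0.0552 without stomach mouse 2).

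*Ovol2*, the OVO gene of simple as well as stratified epithelia, read 12.81, 12.91 and 12.83 in esophagus organoids and 12.59, 12.54 and 13.34 in stomach organoids. The 3 esophagus arrays lay within 0.10 of each other and inside the range of the stomach arrays. The difference was 0.03 ± 0.23 (SE), with an interval of -0.50 to 0.56 and an adjusted p of 0.964, so a difference of up to 1.47-fold in favor of esophagus organoids lies within the interval. *Ovol3*, the remaining OVO gene, was not well above background throughout either tissue.

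*Zfp750* separated the tissues on every array. This zinc finger factor is needed for late epidermal genes and for closing down basal ones. Its log2 values were 11.08, 11.60 and 10.15 in esophagus organoids and 7.72, 7.85 and 7.57 in stomach organoids. All 3 esophagus arrays were at least 2.29 above the stomach arrays, which lay within 0.28 of each other. The difference was 3.23 ± 0.34 (SE; 2.44 to 4.01), or 9.36-fold, with an adjusted p of 0.000586, and it was called in 14 of 14 alternatives. The gene lies inside *Tbcd* in the RefSeq gene table, and the brightest probe of *Tbcd* differed by 0.25 (adjusted p 0.386).

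Most genes of the proteins that ZFP750 is known to work with were not called. Of 7, which encode KLF4, the demethylase KDM1A, RCOR1, CTBP1, CTBP2, HDAC1 and HDAC2, only *Hdac2* was called, with a difference of 0.77 (adjusted p 0.0367), and the median of the list was 0.04. The *Hdac2* call was lost without esophagus mouse 2 (adjusted p 0.0673), esophagus mouse 4 (0.0728) or any of the stomach arrays of mice 1, 2 and 4 (0.151, 0.103 and 0.056). *Klf4*, a factor of differentiating cells in both epithelia, had log2 values of 13.56, 15.21 and 12.15 in esophagus organoids and 14.22, 14.10 and 14.23 in stomach organoids. The esophagus arrays lay on both sides of the stomach arrays, with mouse 2 highest and mouse 4 lowest, as for *Ovol1*. The *Klf4* difference was -0.54 ± 0.65 (SE; -2.06 to 0.98; adjusted p 0.703), and it was 0.21 without esophagus mouse 4 and -1.33 without esophagus mouse 2.

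*Prdm1* encodes Blimp-1, a repressor known from plasma cells, sebaceous glands and the uppermost living layer of the epidermis. Its log2 values were 10.53, 9.80 and 7.27 in esophagus organoids and 7.02, 6.24 and 6.75 in stomach organoids. Esophagus mice 1 and 2 were far above every stomach array, whereas esophagus mouse 4 was 0.25 above stomach mouse 1. The difference was 2.53 ± 0.74 (SE; 0.80 to 4.26), or 5.79-fold, with an adjusted p of 0.0707. Without esophagus mouse 4 it was 3.5 (adjusted p 0.000393), without esophagus mouse 1 it was 1.87 (0.142), and with probes of low signal left out adjusted p was 0.0394. Of the plasma and immune cell genes, *Jchain*, *Mzb1*, *Ptprc*, *Ms4a1* and *Adgre1* were not well above background on any array, *Cd79a*, a gene of the B lineage, was so on 2 of 3 arrays in each tissue (6.80 in esophagus mouse 2), and *Cd68*, *Cd3e*, *Csf1r* and *Sdc1* were so on all 6, and 0 of 10 were called in either direction by limma (1, *Sdc1*, was higher in esophagus organoids at unadjusted p under 0.05).

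The wider PRDM family, chromatin and DNA-binding factors that share a PR domain, was split, with more genes higher in stomach than in esophagus organoids. Of 15 genes on the arrays, 6 were well above background throughout neither tissue, 1 was called higher in esophagus organoids and 4 were called higher in stomach organoids. *Prdm16*, known from brown fat and stem cells, was lower in esophagus organoids, with a difference of -3.77 ± 0.48 (SE; adjusted p 0.0016) and 2 of 3 esophagus arrays well above background, and its esophagus value in mouse 1 (4.90) lay well under those in mice 2 and 4 (6.75 and 6.82). Without that array the *Prdm16* difference was -3.14. *Mecom*, a close relative of *Prdm16*, was at least 3.02-fold higher in stomach organoids (adjusted p 0.00688). This limit depends on the floor of the normalization, and the fitted *Mecom* difference ran from -4.06 to -1.09 over the alternatives. Of the 3 *Mecom* probes, 2 were called higher in stomach organoids, and the probes differed by between -1.76 and 0.27. *Prdm4* was the gene called higher in esophagus organoids, by 0.80 (adjusted p 0.023), and the call was lost without esophagus mouse 2 (0.0814), esophagus mouse 4 (0.062), stomach mouse 1 (0.105) or stomach mouse 2 (0.089).

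*Maf* gave the widest separation of the 8 genes. Its brighter probe read 10.57, 9.95 and 9.72 in esophagus organoids and 4.63, 4.63 and 4.92 in stomach organoids. It was well above background on all 3 esophagus arrays and on 0 of 3 stomach arrays, so the stomach values are a limit and not a level. *Maf* was at least 38.0-fold higher in esophagus organoids (adjusted p 4.58e-06). This bound sets the mean of the esophagus arrays against the lowest signal well above background on each stomach array, or the probe's own value where that was higher. It depends on the floor of the normalization, as the fitted difference of 4.15 for this probe with a normexp offset of 50 shows.

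In the RefSeq gene table (GRCm38.p6) *Maf* spans 3642 bases, so 2 probes that start 20463 bases apart cannot both lie in that gene model. Which transcript each of them reads was not tested. The other *Maf* probe, under a different transcript accession, went the same way. It read 8.27, 8.06 and 7.5 in esophagus organoids and 5.22, 5.25 and 4.99 in stomach organoids, with 1 of the latter 3 arrays well above background. The fitted difference of 2.79 (adjusted p 0.000116) rests on 2 stomach values that are not above background and ran from 1.95 to 4.63 over the alternatives, so its size is not settled here. For both probes the esophagus arrays ran in the order mouse 1, mouse 2, mouse 4, and both were called in 14 of 14 alternatives.

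Of the 7 MAF family genes on the arrays, *Mafa*, known from pancreatic beta cells, was higher in stomach organoids by a small amount, with a difference of -0.77 (adjusted p 0.0171). That call was lost without esophagus mouse 2 (0.0555), stomach mouse 1 (0.0579) or stomach mouse 2 (0.0689), and the second *Mafa* probe differed by 0.33. The small MAF genes, whose proteins lack an activation domain, were not called. *Maf* is also a gene of macrophages. *Cd68* was well above background on all arrays, with log2 values of 14.77, 12.94 and 11.80 in esophagus organoids and 11.04, 11.22 and 12.36 in stomach organoids (difference 1.63, adjusted p 0.211; 2.32 and 0.0498 without esophagus mouse 4, 0.83 and 0.365 without esophagus mouse 1). *Csf1r*, with means of 7.94 in esophagus and 8.12 in stomach organoids, was also measured on all 6 arrays, while *Adgre1* and *Ptprc* were not well above background on any array. The summed intensity of the 10 immune and plasma cell genes ran from 9566 to 36510 in esophagus organoids and from 7399 to 10510 in stomach organoids. *Cd68* and *Sdc1*, a syndecan that epithelial cells also carry, made up 90.4% to 98.3% of that sum on each array. In esophagus organoids *Cd68* ran in the order mouse 1, mouse 2, mouse 4, as *Maf* did. *Csf1r*, also a macrophage gene, read 8.03, 7.78 and 8.01 in those mice and did not follow that order. Without *Cd68* and *Sdc1*, the remaining 8 genes summed to 618 to 648 in esophagus and 628 to 777 in stomach organoids. The part of such cells in the *Maf* values was not tested.

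**Figure D2:**
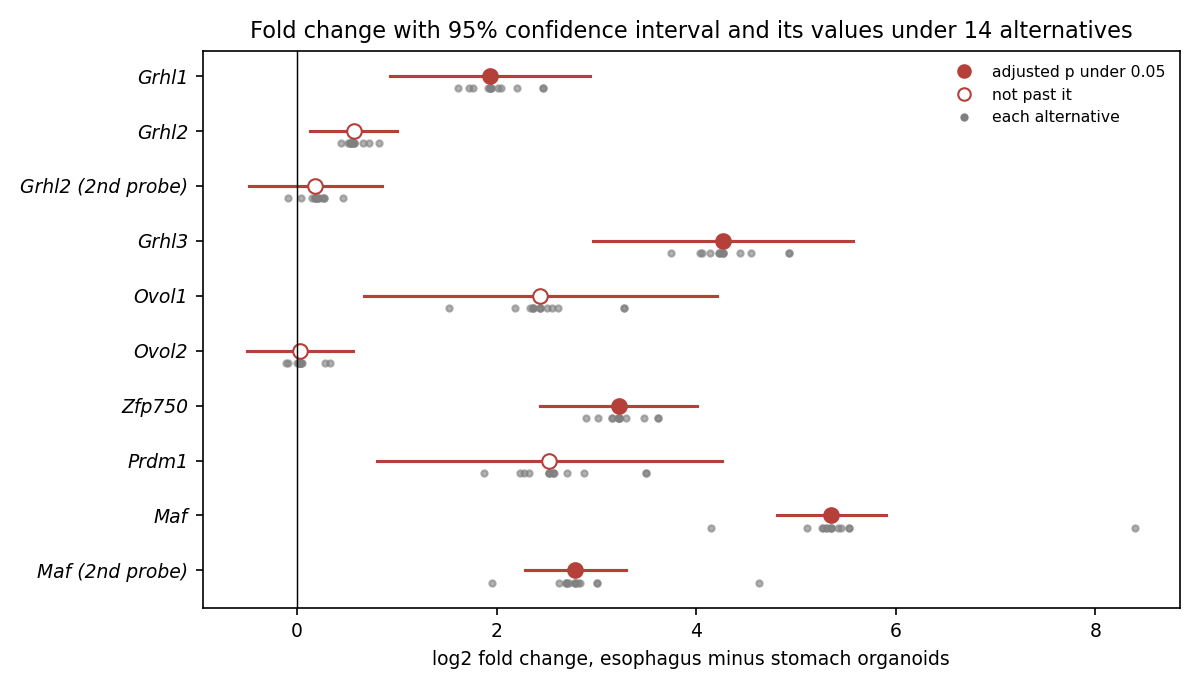
Log2 fold change of esophagus minus stomach organoids (horizontal axis) for each of the 10 probes, as a circle with its 95% confidence interval, filled where adjusted p was under 0.05, and with small grey points for its values under 14 alternatives. The 5 intervals with filled circles lie above 0, those of *Ovol1* and *Prdm1* are the widest, and the far grey point of *Maf* at 8.40 comes from the scanner software's background-subtracted signal with 75th percentile scaling, which differs from the main values in both signal and scaling.

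The spread between esophagus arrays was itself shared by most of these genes. Esophagus mouse 4 was the lowest of the 3 for 8 of 10 probes, the exceptions being *Ovol2* and the brighter *Grhl2* probe, against 28.9% of all probes well above background in esophagus organoids and 38.4% of those also called higher there. Against the mean of mice 1 and 2, mouse 4 differed by -2.90 for *Prdm1*, -2.54 for *Ovol1*, -1.97 for *Grhl3*, -1.61 for *Grhl1* and -1.19 for *Zfp750*. The *Maf* probes differed by -0.54 and -0.66, and *Ovol2* by -0.03. The median over the 10 probes was -0.92, and over all genes well above background in esophagus organoids 0.06.

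Genes of late squamous differentiation followed the same array. Of 18 such genes, 13 were lowest in esophagus mouse 4, with a median difference of -1.72 from mice 1 and 2. *Sprr3* and *Sprr1b*, small proline-rich proteins of the cornified envelope, had log2 values of 15.62, 15.19 and 11.62 and of 15.05, 15.40 and 11.97 in the esophagus organoids of mice 1, 2 and 4. The summed intensity of the 18 genes was 732700, 732300 and 172100 on those arrays, and 22300 to 89270 on the stomach arrays. The 8 genes of basal squamous cells did not follow: mouse 4 was lowest for 2 of them by brightest probe, with a median difference of 0.02, and their sums were 350700, 403300 and 392000. *Trp63* enters that count by the probe that was higher in stomach organoids, and 2 of its 3 other probes were lowest in mouse 4 (13.46, 12.96 and 12.42, and 10.61, 10.43 and 10.24, in mice 1, 2 and 4). The part of the share of maturing cells in the spread of the 8 genes was not tested.

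Esophagus mouse 4 was also the one array hybridised on a second slide, so animal, culture and slide cannot be told apart for it, and in RNA from whole cultures fewer differentiated cells and less transcript per cell cannot be told apart either. Within the first slide, which holds the other 5 arrays, the differences were 2.47 for *Grhl1*, 4.93 for *Grhl3*, 3.62 for *Zfp750*, 0.53 and 0.27 for the brighter and the other *Grhl2* probe, 0.04 for *Ovol2*, and 3.01 for the dimmer *Maf* probe, which was well above background on 1 of 3 stomach arrays. Both *Maf* probes were called there. On that slide 6 of the 8 genes were called, *Ovol1* and *Prdm1* included, against 6.74% of all genes called higher in esophagus organoids. With the filter on dim probes 6 of the 8 were called as well, against 13.6% of the genes it kept. A gene that is bright in a single tissue passes that filter, and *Maf* passed it through its esophagus arrays alone. The place of *Maf* among these 6 is therefore not independent of the filter, although *Maf* was also called without it.

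**Figure D3:**
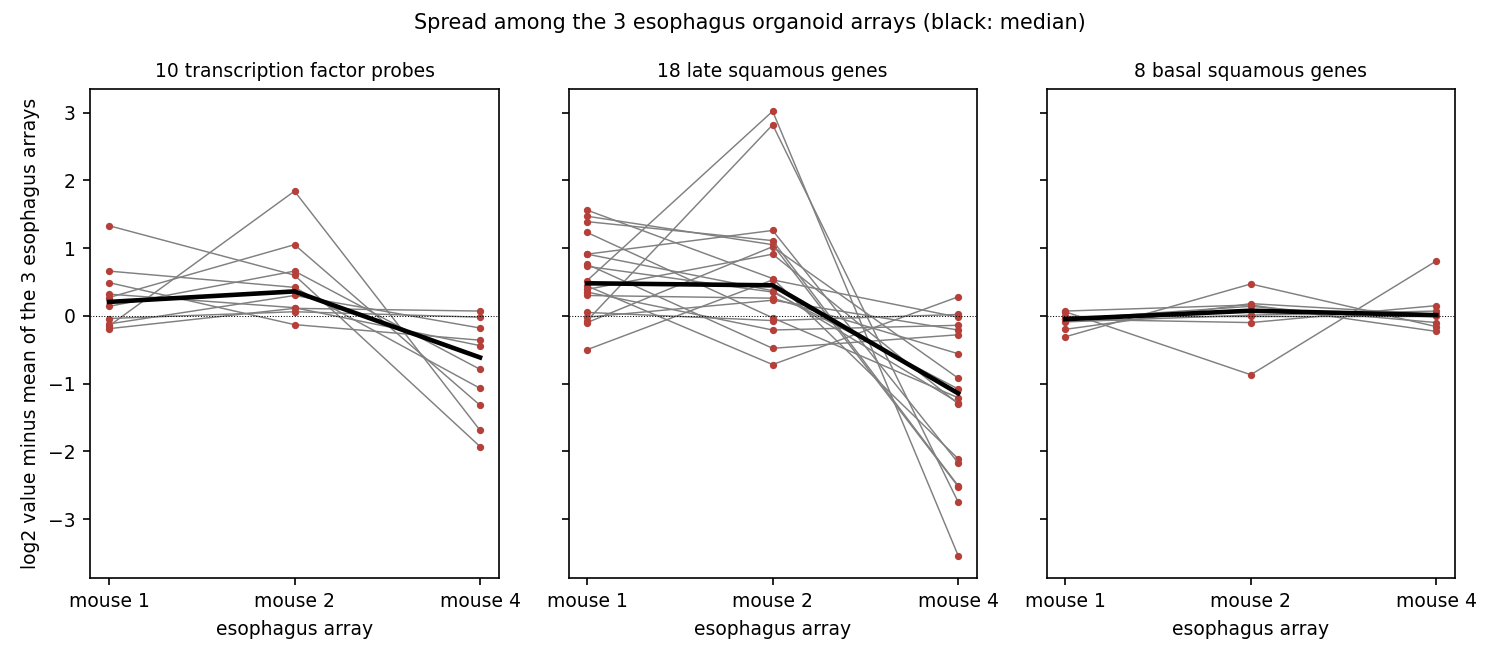
Log2 value on each esophagus array minus the mean of the 3 esophagus arrays (vertical axis) for the 10 transcription factor probes, 18 late squamous genes and 8 basal squamous genes, with a grey line per probe or gene and the median in black. Mouse 4 is lowest for 8 of 10 probes and 13 of 18 late genes, but for 2 of 8 basal genes by brightest probe.

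Known targets of the grainyhead-like factors were compared next. Of 13 on the arrays, 2 were higher in esophagus organoids, 1 was higher in stomach organoids and 10 were not called, with a median of 0.52. Without esophagus mouse 4 the first count was 4 and the second 0. *Tgm1*, the transglutaminase of the cornified envelope and a target of GRHL3, had log2 values of 14.80, 13.54 and 12.36 in esophagus organoids and 5.64, 5.22 and 6.95 in stomach organoids, a difference of 7.64 ± 0.65 (SE; adjusted p 0.00018) with 2 of 3 stomach arrays well above background. It was 7.02 without esophagus mouse 1 and 8.24 without esophagus mouse 4. *Dsg1b*, a desmosomal cadherin, read 10.43, 10.51 and 6.72 in esophagus organoids and was not well above background on the stomach arrays, at least 21.6-fold higher in esophagus organoids (adjusted p 0.0147). This *Dsg1b* bound became 51.3-fold without esophagus mouse 4, 14.2-fold without esophagus mouse 1 and 13.8-fold without esophagus mouse 2. The call was lost without esophagus mouse 2 (0.0508), stomach mouse 1 (0.0632) or stomach mouse 2 (0.0656).

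Junction and epithelial genes that GRHL2 is known to maintain had values leaning either way, most of them not called. *Cdh1*, which encodes E-cadherin, had means of 12.99 ± 0.42 (SD, n = 3) in esophagus and 13.64 ± 0.39 (SD, n = 3) in stomach organoids, a difference of -0.65 with an adjusted p of 0.197. *Epcam* differed by -0.72 (adjusted p 0.0623). On the other side of 0 lay *Cldn4*, a claudin, at 0.73 (adjusted p 0.63), *Rab25*, a small GTPase of epithelial cells, at 0.56 (0.13), and *Esrp1*, an epithelial splicing factor, at 0.62 (0.15), whose other probe was called at 0.69 (0.0291). Without esophagus mouse 4, *Cldn4* and the brightest *Esrp1* probe were called as well (adjusted p 0.00794 and 0.0127). *Cldn3*, a tight junction claudin, was lower in esophagus organoids, with a difference of -1.44 (adjusted p 0.043) and 2 of 3 esophagus arrays well above background. Each of 5 single arrays left out took the *Cldn3* call away, with adjusted p of 0.119 and 0.065 without esophagus mice 2 and 4, and 0.155, 0.0945 and 0.098 without stomach mice 1, 2 and 4.

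Of 9 mesenchymal genes that OVO proteins or GRHL2 are known to hold down, 3 were higher in esophagus organoids, 1 was higher in stomach organoids and 5 were not called. *Zeb1*, *Zeb2*, *Snai1* and *Vim* were not well above background on any of the 6 arrays, so no fold can be given for them. The 3 genes that were higher are also genes of basal squamous cells or of stroma. *Snai2*, a zinc finger factor that basal keratinocytes express, read 12.42, 11.79 and 12.21 in esophagus organoids and was not well above background in stomach organoids, at least 158-fold higher (adjusted p 6.01e-07). *Twist1* and *Twist2*, bHLH factors, were at least 5.65-fold and 7.17-fold higher in esophagus organoids (adjusted p 0.000744 and 2.77e-05). These limits depend on the floor of the normalization, as fitted differences of 6.13 for *Snai2*, 1.64 for *Twist1* and 2.0 for *Twist2* with a normexp offset of 50 show. *Fn1*, fibronectin, was lower there, with a difference of -1.52 (adjusted p 0.00713) and 2 of 3 esophagus arrays well above background. Of the 9 fibroblast and muscle genes, *Pdgfra*, *Lum*, *Myh11* and *Des* were not well above background on any array, *Col3a1* was so on 1 esophagus and 2 stomach arrays, *Acta2* and *Dcn* on 1 esophagus array each (*Acta2* at 6.69 in mouse 2), and *Col1a1* and *Col1a2* on 1 stomach array each. Their part in these values was not tested.

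**Figure D4:**
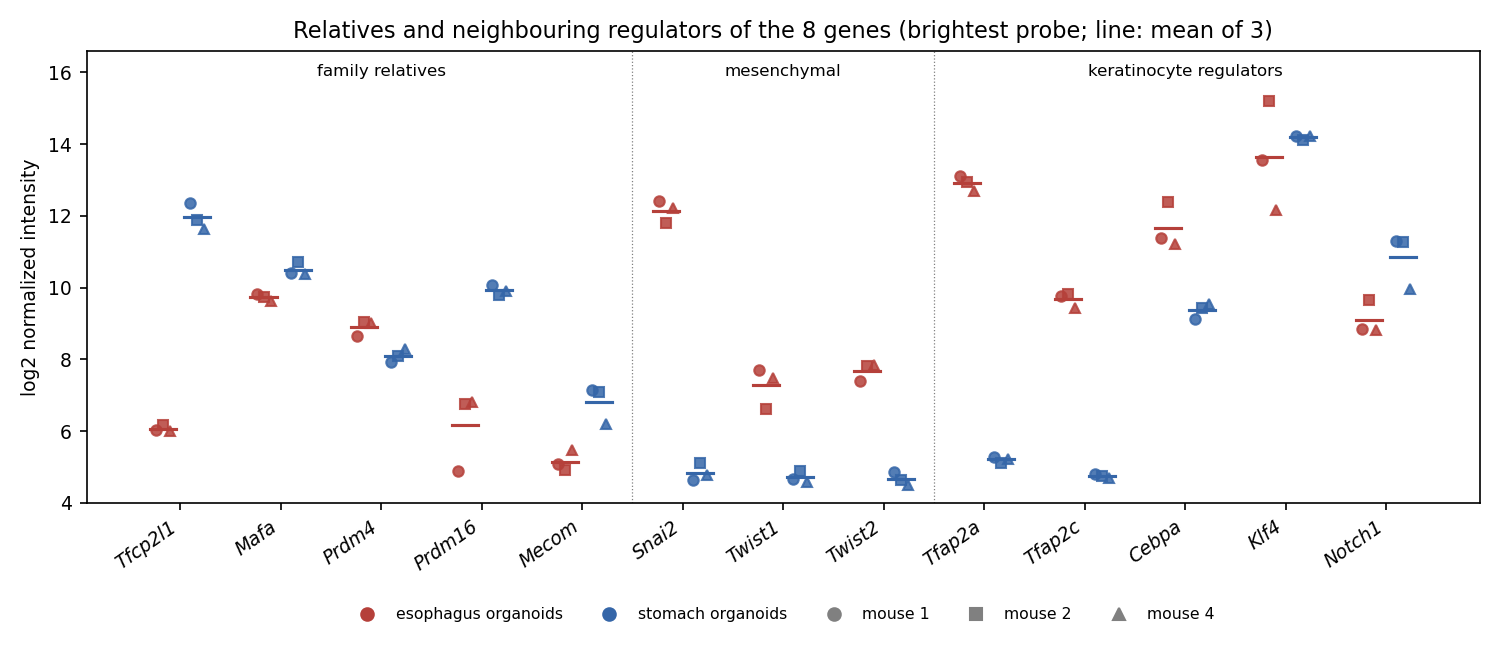
Log2 normalized intensity (vertical axis) of 13 relatives and neighboring regulators of the 8 genes, by brightest probe, on the 3 esophagus (red) and 3 stomach arrays (blue), with lines for the mean of 3; heights of different genes are not comparable. *Snai2*, *Twist1*, *Twist2*, *Tfap2a*, *Tfap2c* and *Cebpa* are higher in esophagus organoids, *Tfcp2l1*, *Prdm16* and *Mecom* are higher in stomach organoids, and the esophagus values of *Klf4* lie on both sides of its stomach values.

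Other regulators known to act beside the 8 genes in keratinocytes were split. Of 13, 5 were higher in esophagus organoids, 3 were higher in stomach organoids, among them *Trp63* by its brightest probe, and 5 were not called, with a median of 0.71. The 5 became 8 without esophagus mouse 4, and the 3 became 1 without stomach mouse 1 or stomach mouse 2. The *Trp63* call by that probe was lost without esophagus mouse 1 (adjusted p 0.0615) or mouse 2 (0.0734) and without stomach mouse 1 (0.11) or mouse 2 (0.0878). *Tfap2a*, an AP-2 factor of surface ectoderm and stratified epithelium, had log2 values of 13.10, 12.94 and 12.70 in esophagus organoids and 5.29, 5.12 and 5.22 in stomach organoids, with 1 of the latter 3 arrays well above background. Its fitted difference of 7.70 (adjusted p 1.15e-07) ran from 6.71 to 9.53 over the alternatives, so its size is not settled here either. *Tfap2c* was at least 28.7-fold higher in esophagus organoids (adjusted p 9.45e-07), with a fitted difference of 4.92, or 3.71 with a normexp offset of 50. *Cebpa*, a factor that slows division in suprabasal cells, was higher there by 2.30 ± 0.31 (SE; adjusted p 0.00214). *Notch1*, a receptor that promotes suprabasal fate in skin, was lower in esophagus organoids, with a difference of -1.74 (adjusted p 0.0263), although its other probe differed by 0.68. The *Notch1* call was lost without esophagus mouse 1 (0.0681), esophagus mouse 4 (0.0694), stomach mouse 1 or stomach mouse 2 (0.113 for each).

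The late squamous genes, which these factors are known to serve, were mostly higher in esophagus organoids. Of 18, 12 were called higher there and 1 lower by brightest probe, with a median of 3.59 (3.55 with genes not well above background at their bound). *Tgm3* was not called by its brightest probe (-0.09), but its other probe was called higher in esophagus organoids, at 5.68. *Krt13*, the suprabasal keratin of the esophagus, differed by 11.00 ± 0.31 (SE; adjusted p 5.43e-07), and *Krt4*, its partner, by 7.96 ± 0.47 (SE; adjusted p 2.34e-05), each with 2 of 3 stomach arrays well above background. *Krt1*, a keratin of dry skin, was the exception. In esophagus organoids no array had it well above background, and it was at least 1.72-fold higher in stomach organoids (adjusted p 0.0421). That call was lost with the mouse as a block (adjusted p 0.0735), without esophagus mouse 2 (0.133) or mouse 4 (0.103), and without stomach mice 1, 2 or 4 (0.0862, 0.0905 and 0.0811).

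**Figure D5:**
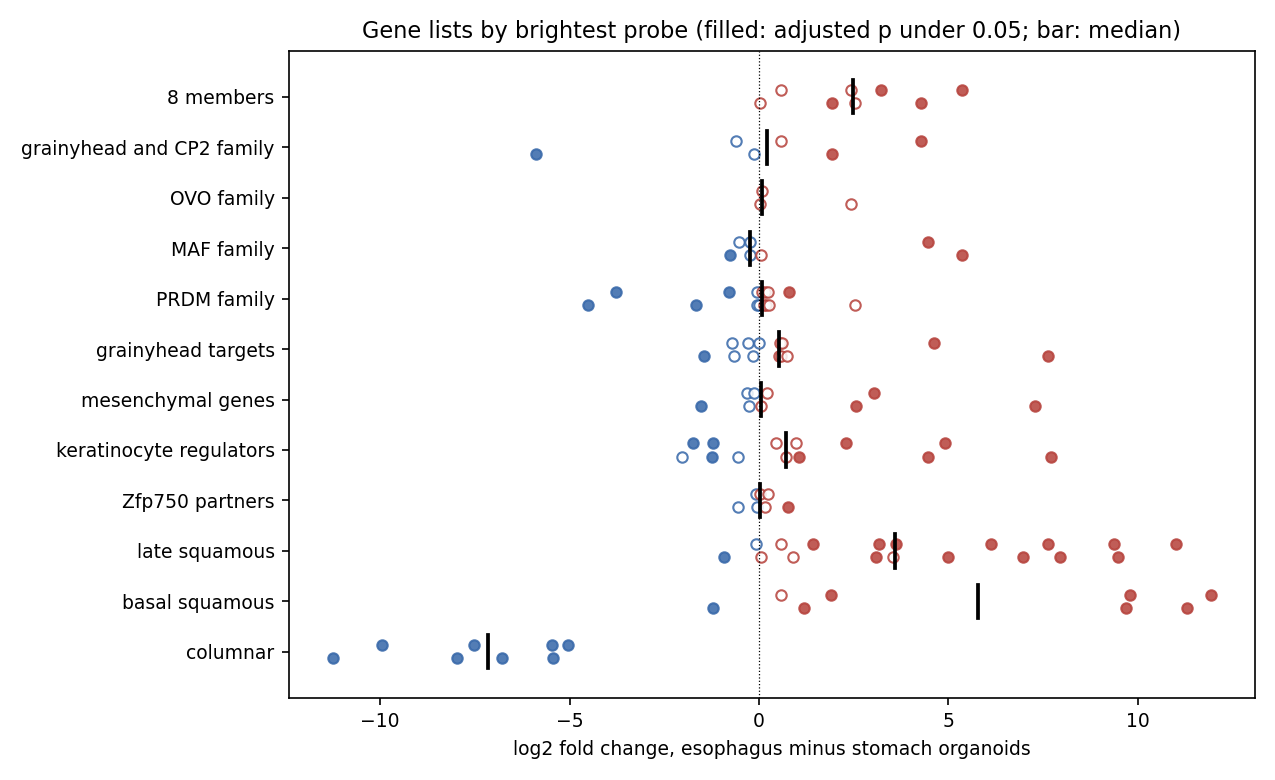
Log2 fold change of esophagus minus stomach organoids (horizontal axis) for each gene, by brightest probe, in the 8 members and 11 gene lists, filled where adjusted p was under 0.05, with bars at the list medians; for genes not well above background in a tissue the plotted value depends on the floor of the normalization. The late and basal squamous lists reach farthest to the right, the 8 columnar genes all lie to the left, and the family lists of the members scatter around 0.

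The genes with the most similar profile were found by the distance between log2 values over the 6 arrays, after each gene's mean was subtracted, among 11485 named genes that were well above background on each array. This is a likeness over 6 arrays of 2 tissues, and it says nothing of shared control. *Hopx*, a homeodomain protein of differentiating epithelium, was nearest to *Grhl3* at a distance of 0.49, with a difference between tissues of 4.38. *Tmem40* was nearest to *Grhl1* (0.45), *Tmem45a* to *Zfp750* (0.67) and *Slc25a13* to *Ovol2* (0.14). For *Zfp750* the third nearest was *Notch3* (0.73). *Maf* was left out, since its stomach values are not above background. *Ovol1* and *Prdm1*, the genes with the widest esophagus spread, had the most distant neighbors, with *Lce1j*, a late cornified envelope gene, at 1.03 from *Ovol1* and *Krtap10-10*, a keratin-associated protein gene, at 0.74 from *Prdm1*.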

How the data were processed

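RNA of 6 organoid cultures was measured on single-color Agilent arrays, scanned and read by the authors in Feature Extraction 11.5.1.1. Each deposited scanner file holds spot intensity values, not normalized between arrays. The table of log2 values deposited by the authors, background corrected and quantile normalized by them, was used for all main values. Its scale was checked against the scanner files: normexp with an offset of 15 on median intensities and quantile normalization gave the same values with a median difference of 0.00433 and a largest of 0.0726, and its 2029 empty cells are 2029 spots marked as outliers.

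Values were averaged per probe and fitted with lmFit and eBayes in limma (version 3.58.1; R 4.3.3) over all 55681 probes and 6 arrays without a block, as esophagus minus stomach, and p-values were adjusted by the Benjamini-Hochberg method across all of them. Genes were read by their brightest probe. The fit was tested on simulated data. With 66 or 67 of 55641 probes changed per size, 23.9% of log2 changes of 1, 80.6% of 2 and 98.5% of 4 were recovered. Fewer probes were changed there than were called in the data, so these shares do not carry over exactly. A gene that was not called may still differ between the tissues. The number of arrays limits the precision. The mouse numbers pair the arrays by animal, and the deviations of paired arrays correlated with r = 0.042, 0.023 and -0.002, so the block was kept as an alternative. The other alternatives were scanner intensities with normexp offsets of 16 and 50, the software's background-subtracted (processed) signal with 75th percentile scaling, outlier spots kept, a filter on dim probes, trend and robust variances, the slide as a block, and each array left out.

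The 8 genes and the gene lists were chosen with earlier results of these data known. All members and probes are given, list genes by default as the 2 largest called changes in each direction, and the 3 nearest genes by profile were found for each member; those of *Maf* are left out because its stomach values are not above background. Other list genes were named for their relation to the members after their values were seen. *Pvrl4*, *Prdm3*, *Emr1* and *Igj* of the lists matched no array name. Single genes of the lists that are not named are not reported here.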

Additional observations from a re-analysis of the deposited data

How the results depend on the processing

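For the 10 probes of the 8 genes under 14 alternatives, 125 of 140 values kept their direction and their side of the threshold, 5 lost the call, 6 gained it and 4 changed sign. The changes of sign were in probes that were never called: *Ovol2* was at -0.09 without stomach mouse 1, -0.11 without stomach mouse 2 and 0.00 without esophagus mouse 2, and the dimmer *Grhl2* probe at -0.09 without stomach mouse 4. With each array left out in turn *Ovol2* ran from -0.11 to 0.28 and that *Grhl2* probe from -0.09 to 0.46. *Grhl3*, *Zfp750* and both *Maf* probes were called throughout, with *Grhl3* between 3.75 and 4.93 and *Zfp750* between 2.90 and 3.62. The lost calls were all of *Grhl1* and the gained ones of *Ovol1* and *Prdm1*. The number of genes called higher in esophagus organoids was 3 to 6 around 4 (4 with all probes of a gene averaged, 6 with the filter on dim probes, within the first slide and at unadjusted p under 0.05 with a 1.5-fold change), that of probes 4 to 7 around 5, and 0 were called higher in stomach organoids under each of these settings. At unadjusted p under 0.05 with a 1.5-fold change, 11.0% of all genes were higher in esophagus organoids.

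With the mouse as a replicate block (a paired analysis), 4 genes and 5 probes were called, as without it, and *Grhl1* had an adjusted p of 0.0328; among the named genes that were called only *Krt1* lost its call. Of the other genes in the 9 family, target and regulator lists, late squamous genes included, 23 were called higher in esophagus organoids (16 to 27 over the alternatives) and 12 higher in stomach organoids (7 to 13). The second count was 7 with the scanner software's background-subtracted signal and 75th percentile scaling, which change together, and 7 without stomach mouse 1 or stomach mouse 2. *Klf4* changed to 0.21 with the slide as a block and without esophagus mouse 4, which leave the same 5 arrays to carry the comparison, and ran from -1.33 to 0.21 with each array left out. *Dlx3* (adjusted p 0.00353) had 0.0512 under that signal and scaling, which also ended the calls of *Mafa*, *Prdm4*, *Cldn3*, *Trp63*, *Hdac2* and *Ap5b1*. A normexp offset of 50 ended those of *Dsg1b*, *Cldn3*, *Trp63*, *Notch1*, *Hdac2* and *Krt1*, trend and robust variances those of *Mafa*, *Prdm4*, *Dsg1b* and *Hdac2*, and mean intensities with an offset of 16, or outlier spots kept, that of *Cldn3*. With the background-subtracted signal and 75th percentile scaling the median difference of all probes was 0.191 instead of 0.024, and *Ovol2* then stood at 0.33 and the brighter *Grhl2* probe at 0.82. Signal over background limits what *Maf* can show in stomach organoids, where its values follow the floor of each normalization (4.15 to 8.40 for the brighter *Maf* probe and 1.95 to 4.63 for the other). Genes with 1 or 2 arrays of a tissue not well above background also moved over the alternatives, single arrays left out included. *Krt5* ran from 10.88 to 14.05, *Krt14* from 10.27 to 12.26, *Krt13* from 10.14 to 12.32 and *Krt4* from 7.16 to 9.13. *Tgm1* ran from 6.89 to 8.72, *Prdm16* from -4.97 to -3.14 (the latter without esophagus mouse 1) and *Fn1* from -2.72 to -1.12. The causes of these shifts were not tested.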
